A study of Mus musculus with 18 samples.

Results

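The genes described here encode the nuclear subunits of the mitochondrial respiratory chain and of ATP synthase. They were chosen by symbol, as those that start with Nduf followed by a, b, c, s or v, that are Sdha, Sdhb, Sdhc or Sdhd, or that start with Uqcr, Cox4 to Cox8 or Atp5, with a mean FPKM of at least 1 over all 18 libraries. FPKM scales the reads of a transcript to its length and to the mapped reads of the library, which makes levels of different genes roughly comparable. Of 19197 listed genes, 95 matched and 92 passed the minimum. Cox7b2, Ndufa11b and Ndufb4b, with means of 0.0639, 0.01 and 0.206 FPKM, were left out. By complex, the 92 members were 37 subunits of complex I, 8 complex I assembly factors (the Ndufaf genes, which help build the complex and are not part of it), 4 subunits of complex II, 8 of complex III, 18 of complex IV and 16 of complex V. Ndufa4 and its relative Ndufa4l2 were counted with complex IV, where the Ndufa4 protein is found. The remaining member, Atp5s, a coupling factor of ATP synthase, matched by name and is no subunit.

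The study sequenced RNA of 18 mouse heart samples, each from the apex, in 3 groups of 6 libraries. All mice were of the inbred strain C57BL/6. MI_DCA mice had a myocardial infarction (MI) and received DCA at 10 mg/kg per day. MI_vehicle mice had an infarction and received vehicle, and sham_vehicle mice had the sham operation and vehicle. All were sampled 1 day after surgery. The labels do not spell out DCA, taken here as deoxycholic acid, a bile acid, because the series is titled after DCA and the bile acid receptor TGR5. They give neither age, sex nor infarct size, and do not say how much of each apex was infarcted, nor whether the 6 libraries of a group are 6 mice, so a p-value here speaks of the spread between libraries, which may be technical. No shams given DCA were among the 18 samples.

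Complexes I and II pass electrons from NADH and succinate to ubiquinone, complex III passes them on to cytochrome c, and complex IV hands them to oxygen. Complexes I, III and IV pump protons across the inner membrane while doing so, and complex V, the ATP synthase, makes ATP from their return. The heart draws most of its ATP from this chain, cardiomyocytes are packed with mitochondria, and several complex IV subunits exist as a form of heart and skeletal muscle and a form found widely. The subunits encoded by mitochondrial DNA were not analysed here.

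In sham hearts most of these genes had a median over 100 FPKM, and they were not ranked against other genes. The median member had 526 FPKM in the median sham_vehicle heart, and 22 members reached 1000 FPKM, of which 10 belonged to complex IV, 10 to complex V and 2 to complex III. Atp5b, the catalytic beta subunit of ATP synthase, stood highest at 3571 FPKM, followed by Cox6a2 at 3247 FPKM and Cox7c at 2212 FPKM. The median over the members of a complex was 1299.8 FPKM for complex V, 1102 FPKM for complex IV, 756 FPKM for complex III, 546 FPKM for complex II and 442 FPKM for complex I. The complex I assembly factors were far below their complex, with a median of 24.96 FPKM, and Cox6b2, known as a testis form, was lowest at 5.44 FPKM. The 92 members made up 14.3%, 11.9%, 12.3%, 12.3%, 11.7% and 11.6% of the summed FPKM in sham_vehicle hearts 1 to 6.

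Library sham_vehicle 1 stood apart before any comparison. Its members had a median log2 difference of 0.36 from the other shams, whereas the same measure lay between -0.10 and 0.04 for each of those. Short transcripts were higher there in general: 49 genes outside the membership with a transcript of at most 500 bases stood 0.60 above the other shams in the median, and 1189 with one over 4000 bases stood at -0.13 (mean FPKM of 10 or more). The short genes stood at -0.20 to 0.02 in the other shams. They were also higher after infarction, at 0.16, 0.41 and 0.55 in MI_vehicle hearts and 0.14, 0.19 and 0.53 in MI_DCA hearts (lowest, median and highest). Erythroid markers summed to 2099 FPKM in sham_vehicle 1, against 357 to 894 FPKM in the other shams. The members' transcripts are short, with a median of 763 bases against 2838 bases for all genes whose mean reached 1 FPKM. Complex II, with a median of 2065.5 bases, showed -0.06 in that library relative to the sham mean, against 0.38 for complex I. Member counts per complex and overall that rest on the shams are therefore also given without this library, and list counts where they move by over 1.5 times.

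**Figure D1:**
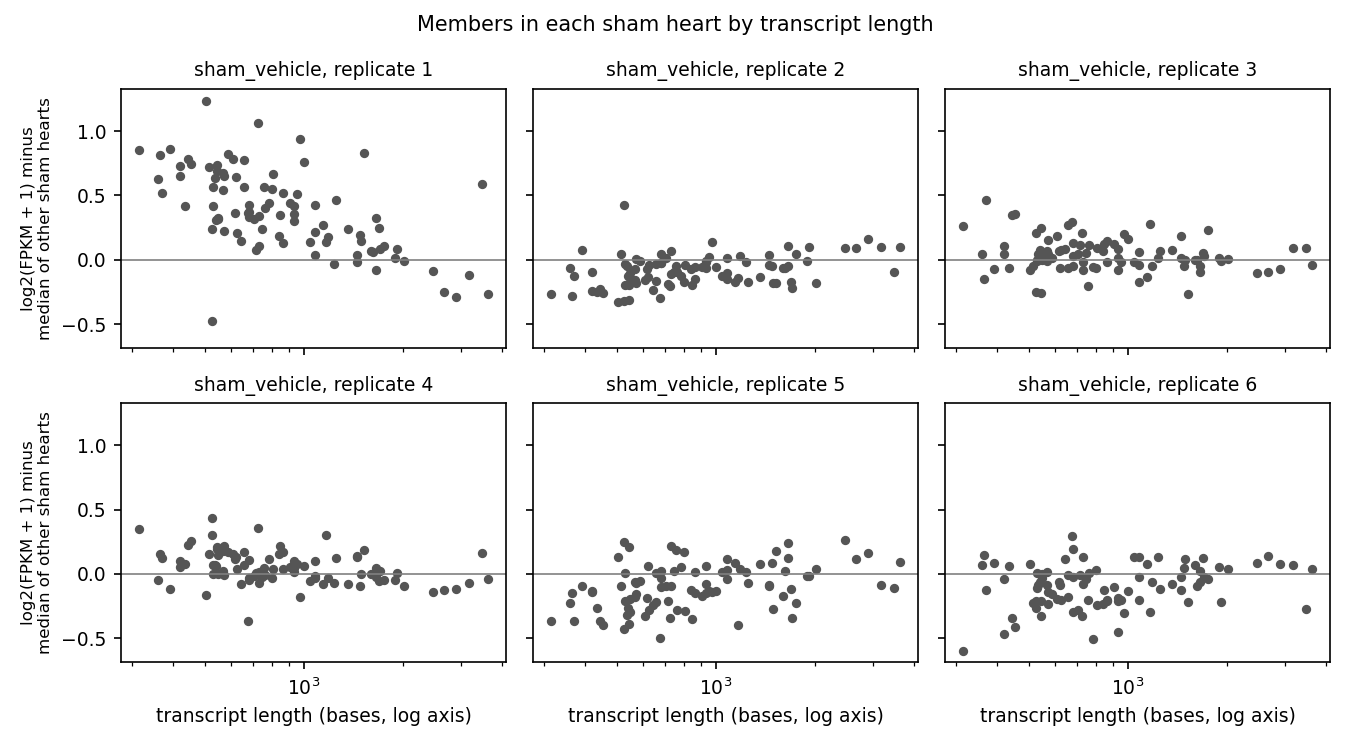
Difference of each member's log2(FPKM + 1) in a sham_vehicle heart from the median of the other shams (vertical axis) against transcript length (horizontal axis, bases, log scale), with 1 panel per heart and 1 point per gene. In sham_vehicle 1 most short members lie above 0 and the longest near or below it, with a median of 0.36, whereas the medians of the other shams lie between -0.10 and 0.04.

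The comparison of MI_vehicle with sham_vehicle hearts asks what infarction alone did to these transcripts after 1 day. Members of all 5 complexes fell: 81 of 92 were lower and 1, Cox6a1, was higher, at a limma adjusted p under 0.05. Over all 11969 genes tested, 20.1% were lower and 38.3% were higher. The median member had a log2 fold change of -0.58, 66.8% of its sham level, beside a median of 0.12 over all genes. All 92 members passed the filter on low values in this and in the other comparisons. With all shams, the median log2 fold change was -0.58 for complex I (36 of 37 lower), -0.67 for complex II (4 of 4), -0.55 for complex III (8 of 8), -0.59 for complex IV (13 of 18) and -0.61 for complex V (14 of 16). It was -0.26 for the complex I assembly factors (5 of 8). When sham_vehicle 1 was left out, the medians were -0.50, -0.68, -0.53, -0.52 and -0.54 for complexes I to V, lowest in complex II. The medians of the complexes were not tested against each other.

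The split of calls over all genes, 4583 higher and 2408 lower, depends on how libraries are scaled. It was 3379 and 3430 with median-ratio scaling, which moves the median of all genes by -0.12, and 3189 and 3693 with quantile normalization, which moves it by -0.15. Correction for transcript length, chosen after seeing the data, gave 3427 and 3490 and a shift of -0.12. The members fell under each: 84 were lower with median-ratio scaling (median -0.72), 80 with quantile normalization (median -0.56) and 85 after length correction (median -0.70). Without sham_vehicle 1, 73 members were lower and the median was -0.50, with 32 of 37 lower in complex I, 4 of 4 in complex II, 7 of 8 in complex III, 13 of 18 in complex IV, 13 of 16 in complex V and 3 of 8 among the assembly factors. Without MI_vehicle 4, the infarcted heart nearest to the shams, 84 were lower and the median was -0.69.

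**Figure D2:**
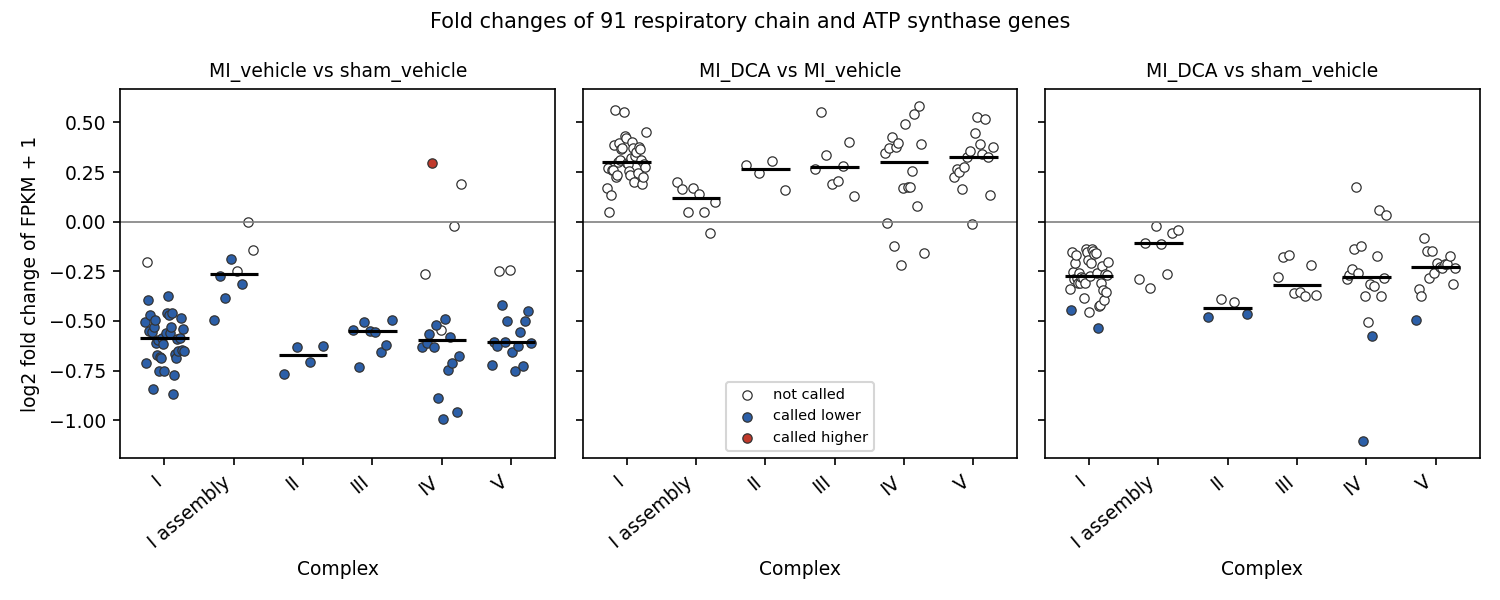
Log2 fold changes of the members (vertical axis) by complex (horizontal axis) in the 3 comparisons, 1 point per gene, filled where the limma adjusted p is under 0.05, with Atp5s not drawn. In MI_vehicle against sham_vehicle hearts nearly all points are filled and below 0, in MI_DCA against MI_vehicle hearts most points are above 0 and none is filled, and in MI_DCA against sham_vehicle hearts few are filled.

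Groups seldom stood fully apart, and 1 infarcted heart, MI_vehicle 4, stayed within the sham range for most members. For 76 of 92 members at least 5 of 6 MI_vehicle hearts were below the lowest sham, and for 9 all 6 were: Ndufs1, Ndufa5, Ndufv1, Ndufaf1, Sdhc, Sdhd, Cox6b2, Cox7a2l and Cox7c, listed after their values were seen. Without sham_vehicle 1 these numbers were 77 and 11. Over all genes, 5.74% were lower without overlap, which is the background for the 9 members only. The shares of all genes for the count of at least 5 hearts and for the counts by heart were not computed. Counted by heart, 80, 85, 83, 10, 79 and 85 of the 92 members were below the lowest sham in MI_vehicle hearts 1 to 6. As a share of the sham mean, the median member stood at 62.8%, 57.3%, 66.6%, 96.5%, 73.2% and 53.3% in these hearts, against 125%, 92.8%, 99.8%, 100.2%, 92.2% and 93.8% in sham_vehicle hearts 1 to 6. In complex II the median of MI_vehicle 4 was -0.21 relative to the sham mean, below each sham, and in the other complexes it lay within the sham range.

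**Figure D3:**
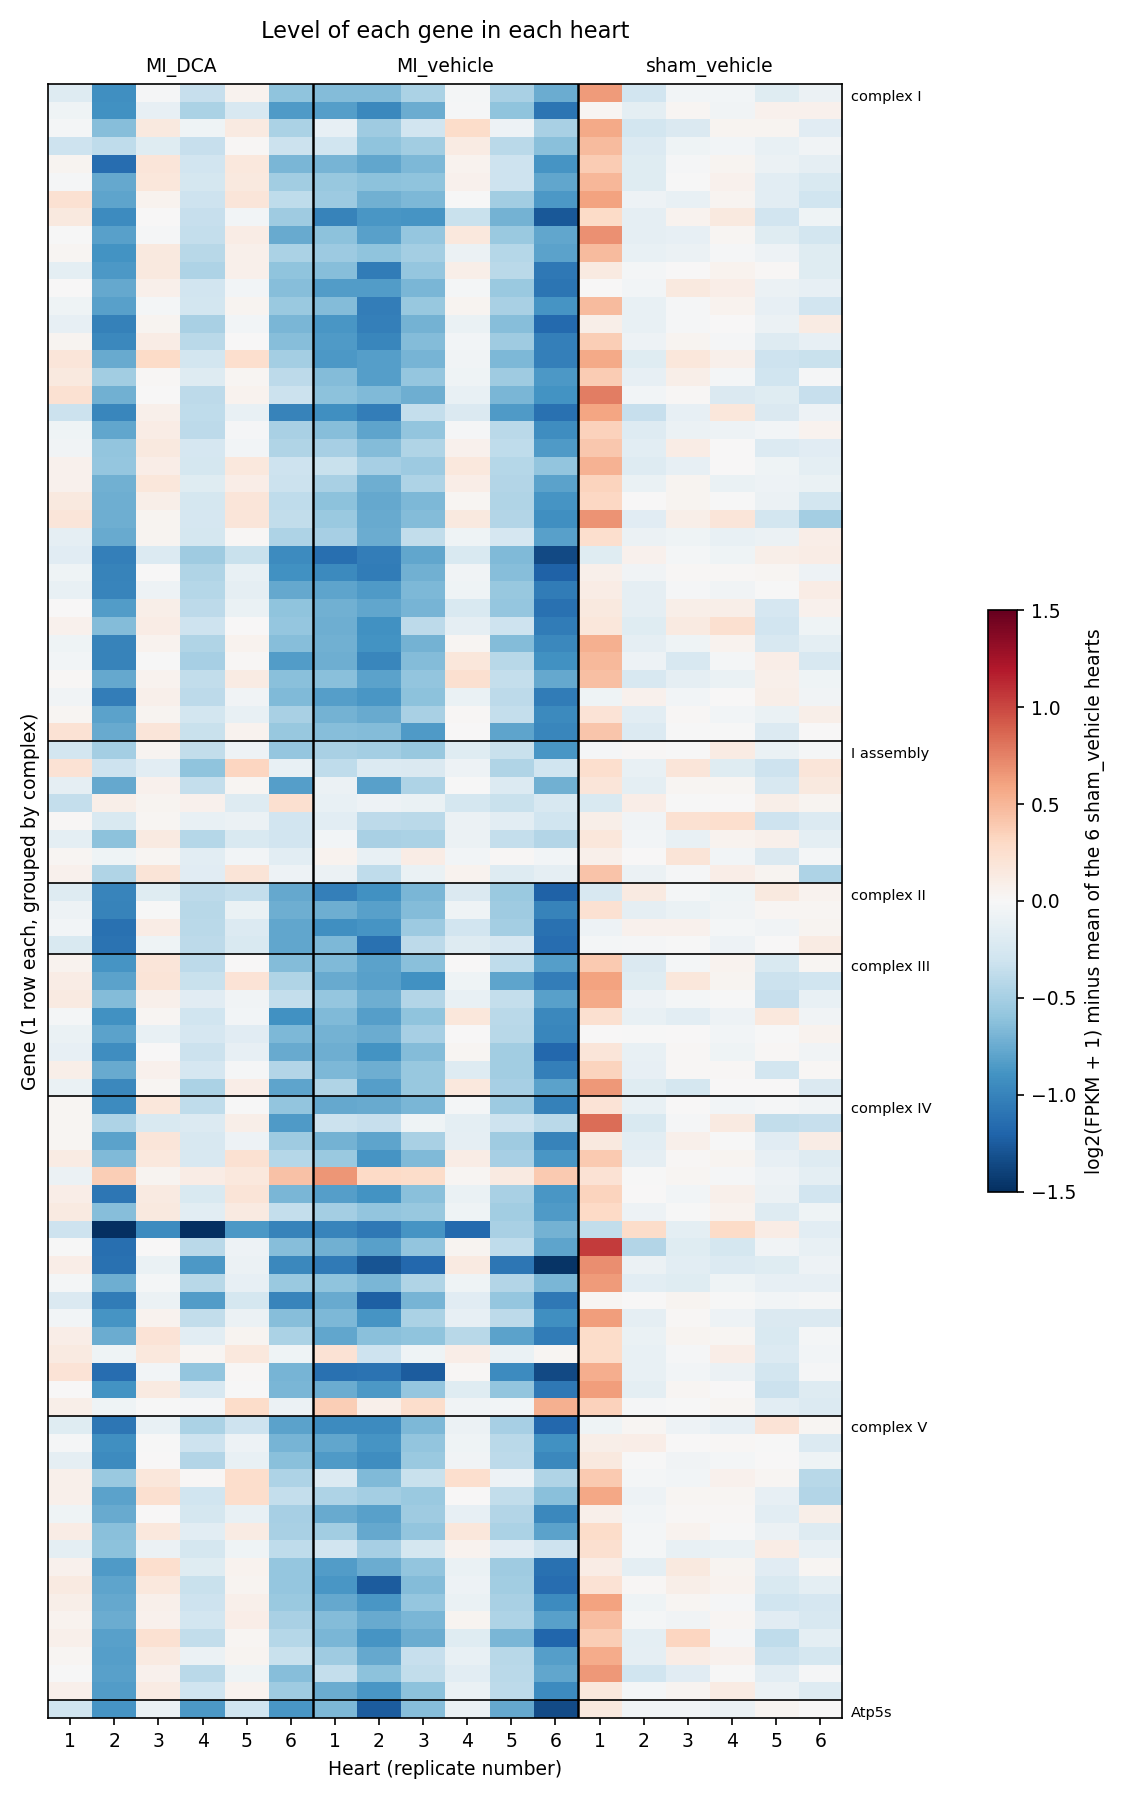
Log2 deviation of each member (rows, by complex) from its sham_vehicle mean in each heart (columns, MI_DCA, MI_vehicle and sham_vehicle hearts 1 to 6 from left to right), with colours clipped at 1.5 in either direction. Hearts differ as a whole across complexes, and the median member stands at 96.5% of the sham mean in MI_vehicle 4 and at 53.3% to 73.2% in the other MI_vehicle hearts.

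In complex I, the largest falls were in Ndufs1 (chr1:63143592-63176822, build GRCm38.p6 throughout), the largest iron-sulfur subunit of the arm that oxidises NADH, and Ndufa5 (chr6:24518662-24527690), an accessory subunit of the arm that reduces ubiquinone. Here and below, 3 values are the lowest, the median and the highest of a group of 6. Ndufs1 had 105, 144 and 231 FPKM in the MI_vehicle hearts, against 238, 274 and 293 FPKM in the sham_vehicle hearts (log2 fold change -0.87, SE 0.16, adjusted p = 0.000643). Ndufa5 had 252, 331 and 484 FPKM in the MI_vehicle hearts, against 498, 609 and 744 FPKM in the sham_vehicle hearts (log2 fold change -0.84, SE 0.15, adjusted p = 0.000527). In both genes each infarcted heart was below each sham. The 36 subunits called had log2 fold changes between -0.87 and -0.38. Ndufa11, an accessory subunit of the membrane arm, was the 1 complex I subunit not called, with 59.8, 75.7 and 106 FPKM in the MI_vehicle hearts, against 72.2, 83.7 and 129.5 FPKM in the sham_vehicle hearts (log2 fold change -0.20, SE 0.16, adjusted p = 0.285), and the groups overlapped broadly.

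Among the assembly factors the falls were smaller. Ndufaf1, which helps to build the membrane arm, had 18.4, 24.2 and 30.5 FPKM in the MI_vehicle hearts, against 32.3, 34.3 and 37.8 FPKM in the sham_vehicle hearts (log2 fold change -0.49, SE 0.10, adjusted p = 0.00124), without overlap. Ndufaf3, which acts early in assembly, had 11.1, 16.1 and 20.3 FPKM in the MI_vehicle hearts, against 17.1, 20.9 and 23.2 FPKM in the sham_vehicle hearts (log2 fold change -0.38, SE 0.14, adjusted p = 0.0313). Its call was lost when any 1 of 7 libraries was left out (MI_vehicle 2, 3 or 6, or sham_vehicle 1, 3, 4 or 6), with adjusted p between 0.00802 and 0.0733. Ndufaf5, Ndufaf7 and Ndufaf8 were not called, though Ndufaf5 was near the threshold (log2 fold change -0.25, adjusted p = 0.0568). Its fall passed with all 18 libraries in 1 fit, length correction, sample quality weights, or quantile or median-ratio scaling, and without MI_vehicle 4 or sham_vehicle 5 or 6 (adjusted p between 0.0044 and 0.0401). Ndufaf7, which acts early in assembly, had 18.7, 20.3 and 22.2 FPKM in the MI_vehicle hearts, against 17.4, 20.2 and 23.6 FPKM in the sham_vehicle hearts, with a log2 fold change of -0.0016 and a 95% interval of -0.16 to 0.16.

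All 4 subunits of complex II, the succinate dehydrogenase shared with the tricarboxylic acid cycle, fell. Sdha (chr13:74322255-74350240), the flavoprotein that oxidises succinate, had 221, 297 and 440.5 FPKM in the MI_vehicle hearts, against 436, 519 and 567 FPKM in the sham_vehicle hearts (log2 fold change -0.77, SE 0.15, adjusted p = 0.00101). Sdhb (chr4:140961271-140979198), the iron-sulfur subunit, had 442, 547 and 847 FPKM in the MI_vehicle hearts, against 802, 879.8 and 1032 FPKM in the sham_vehicle hearts (log2 fold change -0.63, SE 0.14, adjusted p = 0.00213). In both, 5 of 6 infarcted hearts were below every sham. The membrane anchors Sdhc (chr1:171129157-171150640) and Sdhd (chr9:50596340-50603849) stood without overlap. Sdhc had 263, 350.3 and 469 FPKM in the MI_vehicle hearts, against 540.1, 573 and 598 FPKM in the sham_vehicle hearts (log2 fold change -0.71, SE 0.13, adjusted p = 0.000699). Sdhd had 118, 181 and 229 FPKM in the MI_vehicle hearts, against 249, 259.6 and 283 FPKM in the sham_vehicle hearts (log2 fold change -0.63, SE 0.16, adjusted p = 0.00497). The 4 calls were kept when any 1 library was left out.

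The start of Sdhd is shown because it is 1 of 2 members, with Atp5g3, whose promoter window holds a match to a site of estrogen-related receptors, nuclear receptors known to drive mitochondrial genes in heart. The window, from RefSeq's GRCm38.p6 tables, runs from 250 bases before to 50 after the transcript start, at chr9:50603800-50604099 on the minus strand. Capitals mark the match to TCAAGGTCA, which lies on the opposite strand, 36 bases after the start.
Sdhd: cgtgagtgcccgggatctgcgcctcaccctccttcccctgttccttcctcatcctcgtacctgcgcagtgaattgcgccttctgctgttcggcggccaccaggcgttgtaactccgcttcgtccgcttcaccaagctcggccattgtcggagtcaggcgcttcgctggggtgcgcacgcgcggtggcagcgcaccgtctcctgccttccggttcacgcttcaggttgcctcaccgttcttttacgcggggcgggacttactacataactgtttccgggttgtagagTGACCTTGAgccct
The motif was found in 2.67% of the 75 member genes with a window and in 0.335% of 9562 listed genes with a window and a mean of at least 1 FPKM, counting exact matches on both strands.

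All 8 subunits of complex III fell, with log2 fold changes between -0.73 and -0.50. The smallest of these falls, in Uqcrq, an accessory subunit, was lost without sham_vehicle 1 (log2 fold change -0.37, adjusted p = 0.0645), without MI_vehicle 2, 3 or 6 or sham_vehicle 4 or 5 (adjusted p up to 0.0713) and with all 18 libraries in 1 fit (adjusted p = 0.0512). Uqcr11, a small accessory subunit, fell most, with 519.8, 614 and 1025 FPKM in the MI_vehicle hearts, against 854, 1023 and 1628 FPKM in the sham_vehicle hearts (log2 fold change -0.73, SE 0.19, adjusted p = 0.00492). Uqcrfs1, the Rieske iron-sulfur protein that takes part in electron transfer to cytochrome c, had 234, 328 and 539 FPKM in the MI_vehicle hearts, against 489, 524 and 602 FPKM in the sham_vehicle hearts (log2 fold change -0.66, SE 0.16, adjusted p = 0.0037). In each, MI_vehicle 4 alone lay within the sham range.

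Complex IV held the largest falls and the 1 rise among all members. The 13 subunits that fell had log2 fold changes between -0.99 and -0.49, and 4 members, Cox6c, Cox4i2, Cox8a and Ndufa4l2, were not called. Cox6c was near the threshold (log2 fold change -0.54, adjusted p = 0.057), and was called with median-ratio or TPM scaling, length correction or sample quality weights, and without MI_vehicle 4 or sham_vehicle 2 (adjusted p between 0.0114 and 0.0433). The largest falls were in Cox7a1 (chr7:30184171-30186030) and Cox8b (chr7:140898942-140900446), the subunit VIIa and VIII forms of heart and skeletal muscle. Cox7a1 had 578, 735 and 1767 FPKM in the MI_vehicle hearts, against 1401, 1479.6 and 2614 FPKM in the sham_vehicle hearts (log2 fold change -0.99, SE 0.25, adjusted p = 0.00408). Cox8b had 455, 537 and 1182 FPKM in the MI_vehicle hearts, against 962, 1110.4 and 1691 FPKM in the sham_vehicle hearts (log2 fold change -0.96, SE 0.21, adjusted p = 0.00213). The highest infarcted heart was MI_vehicle 4 and the highest sham was sham_vehicle 1 in both genes, and both calls were kept when either was left out. Cox7a2l, linked to supercomplexes of complexes III and IV, which were not examined in these mice, had 101, 142 and 209 FPKM in the MI_vehicle hearts, against 229, 235 and 243 FPKM in the sham_vehicle hearts (log2 fold change -0.75, SE 0.14, adjusted p = 0.000881), and Cox7c, a small structural subunit, had 1068, 1356 and 1651 FPKM in the MI_vehicle hearts, against 1886, 2212 and 2679 FPKM in the sham_vehicle hearts (log2 fold change -0.71, SE 0.13, adjusted p = 0.000587), both without overlap.

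Of the widely expressed partners of the muscle forms, 1 rose, 1 fell and 1 was not called. Cox8a (chr19:7215158-7217616), the partner of Cox8b, had 254, 313 and 368 FPKM in the MI_vehicle hearts, against 273, 309.7 and 384 FPKM in the sham_vehicle hearts (log2 fold change -0.02, SE 0.11, adjusted p = 0.881), and the groups overlapped. Cox6a1 (chr5:115345652-115348958), the partner of the muscle form Cox6a2 (chr7:128205435-128206366), was the 1 member that rose, with 230.3, 276 and 357 FPKM in the MI_vehicle hearts, against 204, 224 and 262 FPKM in the sham_vehicle hearts (log2 fold change 0.30, SE 0.11, adjusted p = 0.0289), and 4 of 6 infarcted hearts were above every sham. This rise is borderline: Cox6a1 was not called with median-ratio scaling (log2 fold change 0.16, adjusted p = 0.204), after length correction (0.19, adjusted p = 0.0877), or without MI_vehicle 1 or 6 or sham_vehicle 4, 5 or 6, where leaving out each library in turn gave adjusted p between 0.00661 and 0.0654. Cox6a2 fell, with 1767, 1986 and 3066 FPKM in the MI_vehicle hearts, against 2685, 3247 and 4130.1 FPKM in the sham_vehicle hearts (log2 fold change -0.63, SE 0.16, adjusted p = 0.00412). Cox7a2, the partner of Cox7a1, fell as well, with 218, 244 and 338 FPKM in the MI_vehicle hearts, against 311, 324 and 552 FPKM in the sham_vehicle hearts (log2 fold change -0.49, SE 0.15, adjusted p = 0.014).

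Promoter windows of 4 of these genes are shown, for the muscle forms that fell most, Cox7a1 and Cox8b, and for the widely expressed forms that did not fall, Cox8a and Cox6a1. The windows are RefSeq's, in GRCm38.p6, from 250 bases before to 50 after the start: Cox6a1 at chr5:115348909-115349208 on the minus strand, Cox8a at chr19:7217567-7217866 on the minus strand, Cox7a1 at chr7:30183921-30184220 on the plus strand and Cox8b at chr7:140900397-140900696 on the minus strand. Capitals mark 2 overlapping matches, 1 on each strand, to GCGCATGC, the core of sites bound by NRF1, in Cox6a1 and 2 opposite-strand matches to CCGGAAGT, the core bound by ETS factors such as GABP, in Cox8a. Cox6a2 had no window.
Cox6a1: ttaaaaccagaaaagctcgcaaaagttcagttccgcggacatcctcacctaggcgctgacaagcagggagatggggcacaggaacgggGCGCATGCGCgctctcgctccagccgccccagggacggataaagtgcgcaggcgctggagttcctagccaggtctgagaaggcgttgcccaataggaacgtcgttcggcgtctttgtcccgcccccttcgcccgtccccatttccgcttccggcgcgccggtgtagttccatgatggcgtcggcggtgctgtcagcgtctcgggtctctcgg
Cox8a: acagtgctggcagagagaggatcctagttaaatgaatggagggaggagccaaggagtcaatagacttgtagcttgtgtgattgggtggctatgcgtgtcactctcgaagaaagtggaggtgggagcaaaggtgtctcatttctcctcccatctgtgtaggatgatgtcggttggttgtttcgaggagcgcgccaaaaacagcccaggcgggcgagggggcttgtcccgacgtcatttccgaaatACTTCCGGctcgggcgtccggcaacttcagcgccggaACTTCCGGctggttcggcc
Cox7a1: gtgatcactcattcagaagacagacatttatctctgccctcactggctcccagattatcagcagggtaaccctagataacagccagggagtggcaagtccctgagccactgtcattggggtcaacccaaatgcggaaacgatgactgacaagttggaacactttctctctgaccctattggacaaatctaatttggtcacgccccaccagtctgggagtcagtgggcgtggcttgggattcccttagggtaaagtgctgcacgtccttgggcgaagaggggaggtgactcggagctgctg
Cox8b: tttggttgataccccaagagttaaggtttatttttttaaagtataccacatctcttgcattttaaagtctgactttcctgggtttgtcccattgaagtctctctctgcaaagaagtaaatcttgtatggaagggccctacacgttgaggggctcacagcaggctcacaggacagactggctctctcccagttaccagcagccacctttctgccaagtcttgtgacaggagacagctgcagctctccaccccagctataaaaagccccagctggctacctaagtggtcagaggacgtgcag
No match to these motifs, to TCAAGGTCA or to AAGATGGC, the core bound by YY1, was in the windows of Cox7a1 and Cox8b, nor in that of Cox7a2, the widely expressed partner of Cox7a1, which says only that these letters are not there. NRF1, GABP and YY1 are transcription factors known to bind at many nuclear genes of the respiratory chain. GCGCATGC was in the windows of 12 of 75 members (16.0%), against 5.93% of the 9562 listed genes described above, AAGATGGC was in 11 members (14.7%) against 5.29%, and CCGGAAGT was in 5 members (6.67%) against 9.15%. The median log2 fold change in MI_vehicle against sham_vehicle hearts was -0.52 for the 12 members with the NRF1 core and -0.60 for the 63 without it, -0.66 and -0.58 for the 5 with and the 70 without the ETS core, -0.64 and -0.58 for the 2 with and the 73 without the estrogen-related receptor site, and -0.58 and -0.59 for the 11 with and the 64 without the YY1 core. These medians were not tested against each other.

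The level of one form was also set against that of its partner within each heart. Each ratio was log2 of the muscle, inducible or other form over its partner, both with 1 FPKM added, tested over hearts with a two-sided exact permutation test. The 8 pairs in 3 comparisons gave 24 tests, of which 6 had an adjusted p under 0.05. None of the 6 passed when medians were compared in place of means (exact permutation, adjusted p = 0.0519 for each). With the replicate number as a block, none passed either (exact permutation within replicate numbers, adjusted p = 0.136 for each). The blocked test allows far fewer regroupings, so that a pass over 24 tests was hardly possible, and it decides nothing about the ratios. The Cox6a2/Cox6a1 ratio averaged 2.92 ± 0.50 in MI_vehicle hearts and 3.85 ± 0.10 in sham_vehicle hearts (SD, n = 6 each), a difference of -0.93 (exact permutation p = 0.00433, adjusted p = 0.039). On the linear scale Cox6a2 was 7.59 times Cox6a1 in the infarcted hearts and 14.47 times in the shams. The Cox8b/Cox8a ratio averaged 0.94 ± 0.49 in MI_vehicle hearts and 1.88 ± 0.15 in sham_vehicle hearts (SD, n = 6 each), a difference of -0.94 with the same p values. In both ratios 1 infarcted heart, MI_vehicle 4, overlapped the shams.

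The Cox7a1/Cox7a2 ratio averaged 1.68 ± 0.36 in MI_vehicle hearts and 2.19 ± 0.08 in sham_vehicle hearts (SD, n = 6 each) and did not pass (difference -0.50, exact permutation, adjusted p = 0.052), and it passed without MI_vehicle 4 (adjusted p = 0.013). For Cox6a2/Cox6a1 and Cox8b/Cox8a the call was lost without sham_vehicle 2, 3, 4 or 6 (exact permutation, adjusted p between 0.013 and 0.0519 over the 12 leave-outs). The ratio of Ndufa4l2 (chr10:127509274-127517154), known to be induced by low oxygen, to Ndufa4 (chr6:11900372-11907450) averaged -4.90 ± 0.50 in MI_vehicle hearts and -5.76 ± 0.16 in sham_vehicle hearts (SD, n = 6 each), a difference of 0.86 (exact permutation p = 0.00649, adjusted p = 0.039), lost in the same leave-outs. Ndufa4 fell, with 944, 1250.3 and 1759.7 FPKM in the MI_vehicle hearts, against 1595, 1894 and 3079 FPKM in the sham_vehicle hearts (log2 fold change -0.67, SE 0.18, adjusted p = 0.0058), whereas Ndufa4l2 was not called, with 34.5, 40.4 and 52.0 FPKM in the MI_vehicle hearts, against 30.8, 35.6 and 45.6 FPKM in the sham_vehicle hearts (log2 fold change 0.19, SE 0.12, adjusted p = 0.179). A ratio shows unequal change and not that the other form kept its level.

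**Figure D4:**
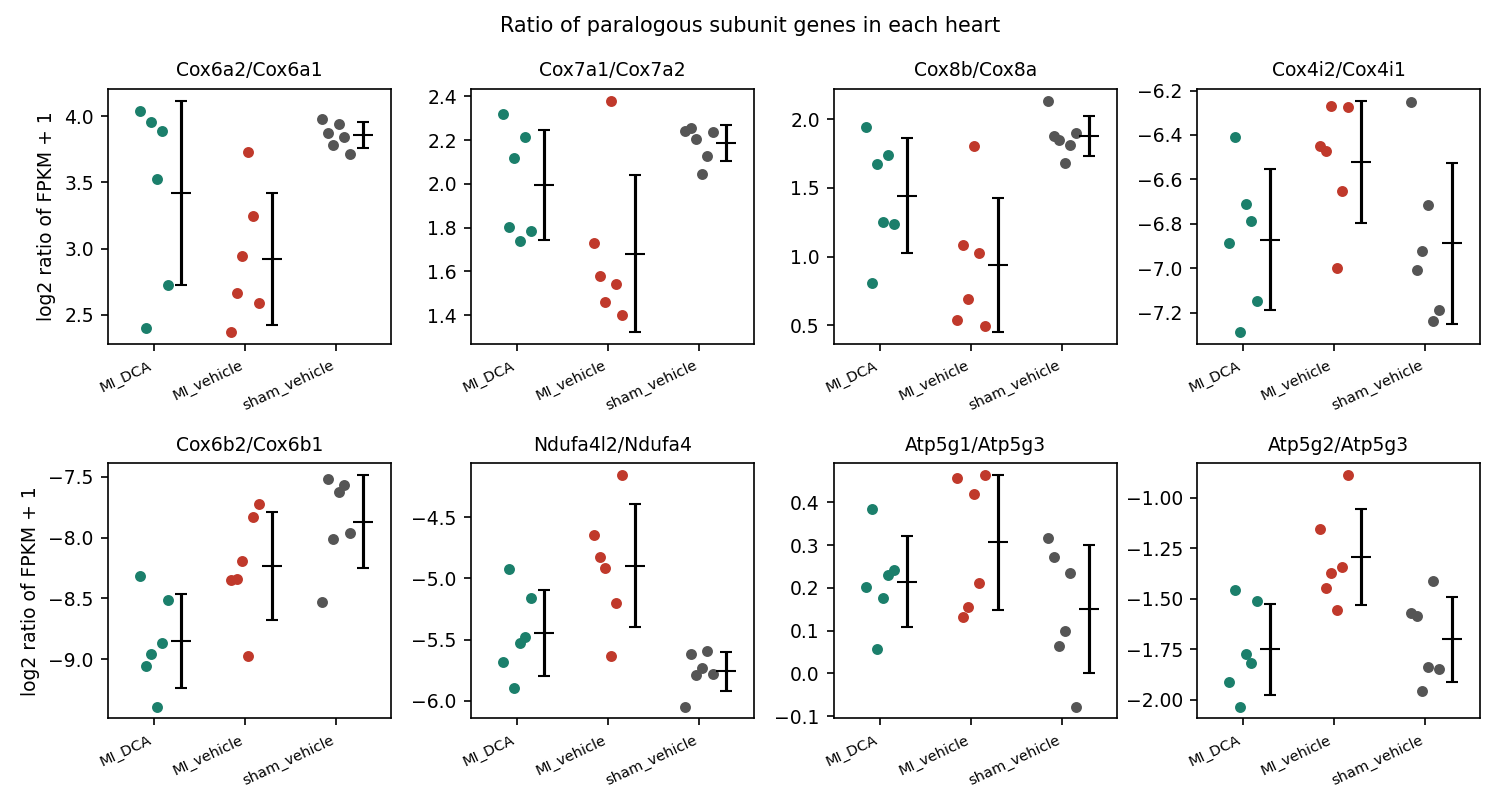
Log2 ratio of FPKM (vertical axis) for the pairs of related subunits, 1 point per heart, in MI_DCA, MI_vehicle and sham_vehicle hearts from left to right, with mean and SD in black. The MI_vehicle hearts lie below most shams for Cox6a2/Cox6a1 (2.92 ± 0.50 and 3.85 ± 0.10) and Cox8b/Cox8a (0.94 ± 0.49 and 1.88 ± 0.15), and the MI_DCA hearts reach from the range of the one group into that of the other.

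The ratios of the other complex IV pairs did not pass the test between MI_vehicle and sham_vehicle hearts. Cox4i2, a form known from lung and low oxygen, was not called, with 11.1, 11.8 and 14.3 FPKM in the MI_vehicle hearts, against 11.4, 13.7 and 27.5 FPKM in the sham_vehicle hearts (log2 fold change -0.27, SE 0.17, adjusted p = 0.199). Its partner Cox4i1 fell, with 935, 1150.3 and 1850.1 FPKM in the MI_vehicle hearts, against 1757, 1859 and 2177 FPKM in the sham_vehicle hearts (log2 fold change -0.63, SE 0.15, adjusted p = 0.00269). The difference of their log ratio was 0.37 (exact permutation, adjusted p = 0.148). Cox6b2 had 1.90, 2.39 and 3.64 FPKM in the MI_vehicle hearts, against 4.04, 5.44 and 6.97 FPKM in the sham_vehicle hearts (log2 fold change -0.89, SE 0.14, adjusted p = 0.000295), without overlap, and is the member with the lowest level. Cox6b1, the form found widely, had 839.9, 1041 and 1454 FPKM in the MI_vehicle hearts, against 1328, 1481 and 1866 FPKM in the sham_vehicle hearts (log2 fold change -0.52, SE 0.13, adjusted p = 0.0048).

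In complex V, 14 of 16 subunits fell, with log2 fold changes between -0.75 and -0.42. Atp5h, subunit d of the peripheral stalk, had 710.2, 1004 and 1609 FPKM in the MI_vehicle hearts, against 1444, 1733 and 1974 FPKM in the sham_vehicle hearts (log2 fold change -0.75, SE 0.18, adjusted p = 0.0034). Atp5k, subunit e, which takes part in joining the enzyme into dimers, had 325, 450.2 and 653 FPKM in the MI_vehicle hearts, against 567, 699.7 and 959.8 FPKM in the sham_vehicle hearts (log2 fold change -0.73, SE 0.17, adjusted p = 0.00275). In both, MI_vehicle 4 was the infarcted heart within the sham range. Atp5d, the delta subunit of the central stalk, was not called, with 505, 663 and 957 FPKM in the MI_vehicle hearts, against 600.5, 801 and 1048 FPKM in the sham_vehicle hearts (log2 fold change -0.25, SE 0.16, adjusted p = 0.201). Atp5s, the coupling factor, had 5.65, 9.24 and 14.9 FPKM in the MI_vehicle hearts, against 14.9, 15.6 and 17.7 FPKM in the sham_vehicle hearts (log2 fold change -0.79, SE 0.17, adjusted p = 0.00171).

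The c subunits, which form the rotating ring and are the same mature protein made from 3 genes, had unequal values. Atp5g3 had 695, 948 and 1414 FPKM in the MI_vehicle hearts, against 1339, 1548 and 1668 FPKM in the sham_vehicle hearts (log2 fold change -0.65, SE 0.15, adjusted p = 0.00259). Atp5g1 had 959, 1137 and 1891 FPKM in the MI_vehicle hearts, against 1462, 1654 and 2026 FPKM in the sham_vehicle hearts (log2 fold change -0.50, SE 0.16, adjusted p = 0.0154), a call lost under quantile normalization (log2 fold change -0.25, adjusted p = 0.125). Atp5g2 was not called, with 329, 383 and 479.9 FPKM in the MI_vehicle hearts, against 428, 443 and 547 FPKM in the sham_vehicle hearts (log2 fold change -0.25, SE 0.10, adjusted p = 0.0573), but it was with median-ratio scaling, quantile normalization, length correction or sample quality weights and without MI_vehicle 4 (adjusted p between 0.00904 and 0.035). The Atp5g1/Atp5g3 ratio differed by 0.15 and did not pass (exact permutation, adjusted p = 0.159). The Atp5g2/Atp5g3 ratio averaged -1.29 ± 0.24 in MI_vehicle hearts and -1.70 ± 0.21 in sham_vehicle hearts (SD, n = 6 each), a difference of 0.41 (exact permutation, adjusted p = 0.0433) that passed in 2 of 12 leave-outs, those without MI_vehicle 4 and without sham_vehicle 5. Atp5g2 is uncertain, since 38.3% of its 50-base stretches also occur in pseudogenes.

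Genes of the same pathway outside the membership moved in the same comparison. Of 5 other nuclear subunits and carriers 4 fell, among them Cyc1, the cytochrome c1 of complex III, with 399, 497 and 806 FPKM in the MI_vehicle hearts, against 722, 758 and 883 FPKM in the sham_vehicle hearts (log2 fold change -0.56, SE 0.15, adjusted p = 0.00507), and Cycs, cytochrome c, with 188, 256 and 338 FPKM in the MI_vehicle hearts, against 296, 387 and 435 FPKM in the sham_vehicle hearts (log2 fold change -0.58, SE 0.15, adjusted p = 0.00591). All 13 genes of the tricarboxylic acid cycle fell, with a median log2 fold change of -0.65, and the largest fall was in Ogdh, a subunit of the 2-oxoglutarate dehydrogenase (log2 fold change -0.88, SE 0.19, adjusted p = 0.00161). Of 39 tested assembly factors of the complexes outside the Ndufaf genes, 17 fell and 2 rose. Atpaf1, which helps assemble the catalytic head of ATP synthase, had 19.2, 27.3 and 40.9 FPKM in the MI_vehicle hearts, against 41.9, 45.7 and 49.0 FPKM in the sham_vehicle hearts (log2 fold change -0.76, SE 0.15, adjusted p = 0.00114). Cox19, a complex IV assembly factor linked to copper handling, had 49.1, 76.0 and 94.6 FPKM in the MI_vehicle hearts, against 29.4, 34.3 and 45.0 FPKM in the sham_vehicle hearts (log2 fold change 0.96, SE 0.17, adjusted p = 0.000631). Both stood without overlap, in opposite directions.

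Of 15 regulators of mitochondrial genes 8 fell and 2 rose. Ppargc1a, the coactivator PGC-1 alpha, known to drive the production of mitochondria, had 5.52, 10.3 and 14.6 FPKM in the MI_vehicle hearts, against 17.8, 23.3 and 25.2 FPKM in the sham_vehicle hearts (log2 fold change -1.17, SE 0.18, adjusted p = 0.000254), without overlap. Esrra, an estrogen-related receptor that works with it, was not called, with 34.4, 54.8 and 65.4 FPKM in the MI_vehicle hearts, against 47.0, 64.5 and 70.7 FPKM in the sham_vehicle hearts (log2 fold change -0.30, SE 0.14, adjusted p = 0.0922). Gabpb1, a subunit of the ETS factor GABP, rose (log2 fold change 0.36, SE 0.09, adjusted p = 0.00336). Of 10 genes of the outer membrane and import machinery 4 rose, Tomm70a most (log2 fold change 0.43, SE 0.13, adjusted p = 0.0119), and 4 fell, Vdac1, the main outer membrane channel, most (log2 fold change -0.65, SE 0.14, adjusted p = 0.002).

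Markers of cell types moved with the members. Of 15 cardiomyocyte markers 12 fell, with a median log2 fold change of -0.79, and none rose. Their summed FPKM was 26840, 34780 and 59059 in MI_vehicle hearts, against 58192, 59818 and 69340 in sham_vehicle hearts. Myh6, the main myosin of the adult mouse ventricle, had 1286, 1779 and 3771 FPKM in the MI_vehicle hearts, against 4032, 4489 and 4668 FPKM in the sham_vehicle hearts (log2 fold change -1.19, SE 0.24, adjusted p = 0.00109). All 12 monocyte and macrophage markers rose (median 1.88), with sums of 534, 745 and 1241 FPKM in MI_vehicle hearts, against 264, 323 and 441 in sham_vehicle hearts. Of 8 neutrophil markers, 5 were tested and rose (median 2.59), with sums of 53.6, 137 and 382 FPKM in MI_vehicle hearts, against 10.2, 17.2 and 37.3 in sham_vehicle hearts. In bulk tissue, fewer cardiomyocytes and less RNA of these genes per cardiomyocyte cannot be told apart, and the part of inflammatory cells in the members' fall was not tested. Of other lists, the fibroblast markers gave 3 higher and 3 lower of 9 (1 and 3 without sham_vehicle 1), the endothelial markers 2 and 3 of 8, the smooth muscle and pericyte markers 2 and 2 of 7, and the erythroid markers 0 and 0 of 5. The defining brown fat genes Ucp1, Adipoq and Plin1 and the skeletal muscle myosins Myh1, Myh2 and Myh4 were under 1 FPKM in every heart of both groups. Cidea, the 1 brown fat marker tested, was lower (log2 fold change -0.52, limma adjusted p = 0.0367) and was not called without sham_vehicle 1. The brown fat markers summed to 12.8, 26.3 and 35.8 FPKM in MI_vehicle hearts, against 32.0, 34.5 and 38.7 FPKM in sham_vehicle hearts. The other 2 of the 5 skeletal muscle markers rose: Acta1, skeletal muscle actin (log2 fold change 1.31, SE 0.45, adjusted p = 0.0229), and Tnnt3, fast skeletal troponin T (log2 fold change 1.62, SE 0.38, adjusted p = 0.00296). The list summed to 264, 565 and 1809 FPKM in MI_vehicle hearts, against 98.5, 244 and 386 FPKM in sham_vehicle hearts. Of the 4 atrial markers 2 were tested, of which Nppa, atrial natriuretic peptide, rose (log2 fold change 3.37, SE 0.46, adjusted p = 0.000139) and Myl4 was not called. The atrial list summed to 773, 3689 and 7040 FPKM in MI_vehicle hearts, against 139.97, 399.9 and 442 FPKM in sham_vehicle hearts. The median log2 deviation of its genes from the sham mean did not follow that sum. It was -0.15, 0.10 and 0.18 in MI_vehicle hearts, against -0.17, 0.01 and 0.27 in sham_vehicle hearts. The part of these lists in the members' values was not tested.

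**Figure D5:**
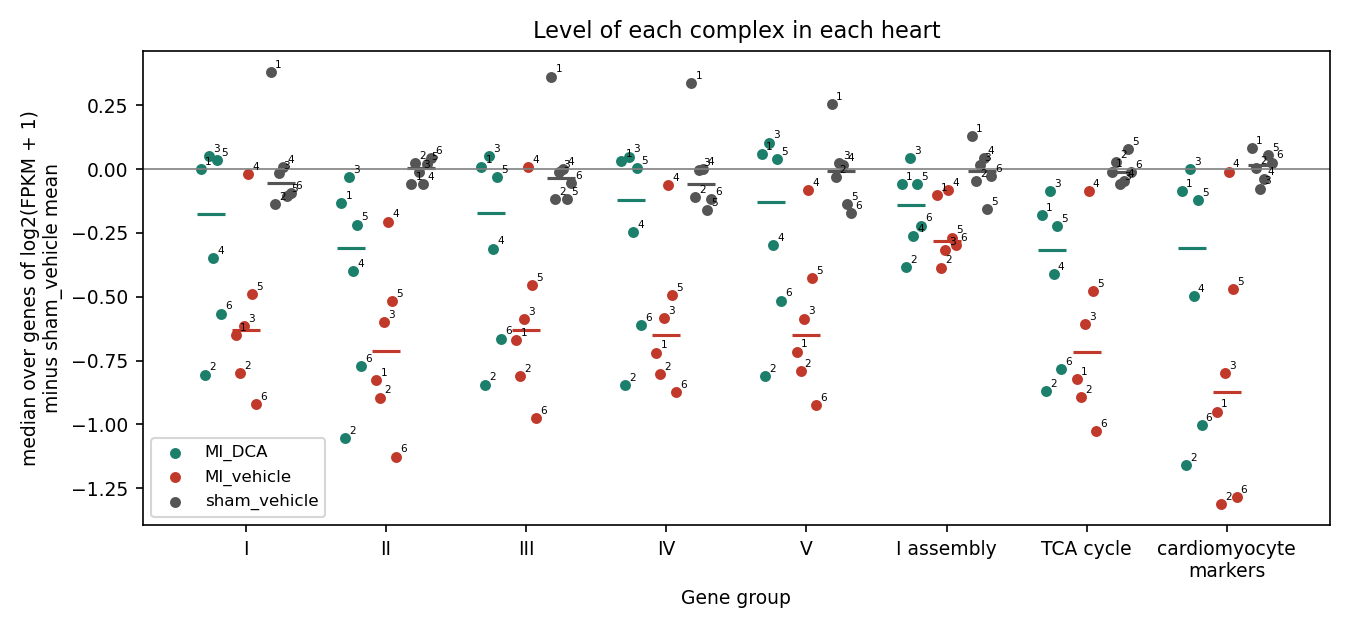
Median log2 deviation of the members of each complex from the sham_vehicle mean (vertical axis), 1 numbered point per heart, in MI_DCA, MI_vehicle and sham_vehicle hearts from left to right, with lines at the group medians. For complex IV the 3 group medians were -0.12, -0.65 and -0.06, and the MI_DCA hearts ranged from -0.85 to 0.05.

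The comparison of MI_DCA with MI_vehicle hearts asks whether DCA altered these transcripts after infarction. No member was called, as no gene was among all 12004 tested (0.0%, limma, adjusted p under 0.05). Values leaned upward: 86 of 92 members had a log2 fold change above 0, the median was 0.28 (121% of the MI_vehicle level), and the median of all genes was -0.06. At an unadjusted limma p under 0.05, 11 members were higher and none lower. Of all 12004 genes, 192 (1.6%) were higher and 1107 were lower by that rule. Of these 11, 5 belonged to complex I, 2 each to complexes III, IV and V, and none to complex II. The medians per complex were 0.30 for complex I, 0.27 for complex II, 0.27 for complex III, 0.30 for complex IV and 0.33 for complex V. The smallest adjusted p of a member was 0.407.

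The smallest unadjusted p was that of Cox7c, with 1319, 2126 and 2549.9 FPKM in the MI_DCA hearts, against 1068, 1356 and 1651 FPKM in the MI_vehicle hearts (log2 fold change 0.54, 95% interval 0.16 to 0.92, unadjusted p = 0.00931, adjusted p = 0.407), and 4 of 6 MI_DCA hearts were above every MI_vehicle heart. Ndufa5 had 318, 538 and 677 FPKM in the MI_DCA hearts, against 252, 331 and 484 FPKM in the MI_vehicle hearts (log2 fold change 0.56, 95% interval 0.13 to 0.99, adjusted p = 0.407). Ndufb3, an accessory subunit of the complex I membrane arm, had 137, 186 and 218 FPKM in the MI_DCA hearts, against 108, 128 and 189 FPKM in the MI_vehicle hearts (log2 fold change 0.43, 95% interval 0.10 to 0.76, adjusted p = 0.407). In each of the last 2 genes, 3 MI_DCA hearts were above every MI_vehicle heart, and the rest overlapped. On the lower side, Ndufa4l2 had 33.5, 35.6 and 43.3 FPKM in the MI_DCA hearts, against 34.5, 40.4 and 52.0 FPKM in the MI_vehicle hearts (log2 fold change -0.16, adjusted p = 0.571), Cox6a1 had 213, 248 and 308 FPKM in the MI_DCA hearts, against 230.3, 276 and 357 FPKM in the MI_vehicle hearts (log2 fold change -0.12, adjusted p = 0.678), and Cox6b2 had 0.83, 2.32 and 4.25 FPKM in the MI_DCA hearts, against 1.90, 2.39 and 3.64 FPKM in the MI_vehicle hearts (log2 fold change -0.22, adjusted p = 0.685). These groups overlapped broadly.

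The MI_DCA hearts were spread more widely than their median tells. Their median member stood at 101%, 57.2%, 104%, 79.7%, 101% and 67.3% of the sham mean in MI_DCA hearts 1 to 6. By heart, 14, 85, 5, 66, 14 and 81 of 92 members were below the lowest sham, and the shares of all genes for these counts were not computed. The members' share of summed FPKM was 12.3%, 7.10%, 12.6%, 9.83%, 12.03% and 8.11% in these hearts, against 7.56%, 7.07%, 8.17%, 11.7%, 8.84% and 6.50% in MI_vehicle hearts 1 to 6. Both groups thus covered nearly the same range. The complex II medians relative to the sham mean were -1.05, -0.31 and -0.03 in MI_DCA hearts, against -1.13, -0.71 and -0.21 in MI_vehicle hearts.

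Cell type markers varied between these hearts too, and the inflammatory lists did not follow the members in each heart. MI_DCA 4, with the median member at 79.7% of the sham mean, had 379 FPKM of monocyte and macrophage and 43.4 FPKM of neutrophil markers. MI_DCA 1 and 5, at 101%, had more, with 440 and 503 FPKM, and 60.8 and 74.4 FPKM. MI_DCA 2 and 6, lower in the members, had the most, with 901 and 797 FPKM, and 179.8 and 106 FPKM. Summed cardiomyocyte markers were 27199, 52166 and 63052 FPKM in MI_DCA hearts, against 26840, 34780 and 59059 FPKM in MI_vehicle hearts, and none of the 15 was called (median log2 fold change 0.31). Summed monocyte and macrophage markers were 314, 471 and 901 FPKM in MI_DCA hearts, against 534, 745 and 1241 FPKM in MI_vehicle hearts, and the 12 markers had a median of -0.64 with none called. Summed neutrophil markers were 40.5, 67.6 and 179.8 FPKM in MI_DCA hearts, against 53.6, 137 and 382 FPKM in MI_vehicle hearts. The part of cell composition and of infarct extent in the members' values was not tested.

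The count of calls changed with the weighting of hearts, while leaving out any 1 heart gave 0 members in either direction and 0 to 1 gene. With limma's sample quality weights, 5370 genes were called in either direction (44.7% of those tested). By that fit 80 members were higher, with a median of 0.54, and the share of all genes that were higher is not given here. That setting gave MI_vehicle 4 a weight of 0.357 and MI_DCA 2, 4 and 6 weights of 0.275, 0.592 and 0.312, against 2.56 for MI_vehicle 3, the highest. Of the 8 ratios between related subunits, Atp5g2/Atp5g3 passed, averaging -1.75 ± 0.23 in MI_DCA hearts and -1.29 ± 0.24 in MI_vehicle hearts (SD, n = 6 each) (difference -0.46, exact permutation, adjusted p = 0.0416), and it passed in 5 of 12 leave-outs, those without MI_DCA 1, 2, 3 or 6 and without MI_vehicle 4. The others did not, among them Cox6a2/Cox6a1 with a difference of 0.50 (exact permutation, adjusted p = 0.219) and Cox8b/Cox8a with 0.50 (exact permutation, adjusted p = 0.148). Without MI_vehicle 4, Cox7a1/Cox7a2, Cox8b/Cox8a, Cox4i2/Cox4i1 and Ndufa4l2/Ndufa4 passed too (exact permutation, adjusted p between 0.0195 and 0.0476). So did Cox6b2/Cox6b1, which also passed without MI_DCA 1.

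Set against sham_vehicle, MI_DCA hearts showed few called members. In all, 8 were lower, a share of the 92 close to the 8.33% of all 11842 genes that were lower, and none was higher, where 15.5% of all genes were. Values leaned downward: 89 of 92 members had a log2 fold change below 0, against 5128 of the 11842 genes. At an unadjusted limma p under 0.05, 21 members were lower and none higher. By that rule 1886 of all genes were lower and 3108 higher. The median log2 fold change was -0.27 (83.0% of the sham level), beside 0.05 over all genes, and the medians per complex were -0.27, -0.44, -0.32, -0.28 and -0.23 for complexes I to V. This comparison shares its shams with the infarction comparison and its DCA hearts with the one above, so its values are not independent of either. The called genes of the whole table split into 1830 higher and 987 lower, against 1346 and 1393 with median-ratio scaling, 1304 and 1555 with quantile normalization and 1436 and 1475 after length correction, where 10, 13 and 23 members were lower. Fewer members were lower with no filter (5), with all 18 libraries in 1 fit (5), with sample quality weights (4) and with the replicate number as a block (3), and Atp5a1, Ndufa10 and Sdhd were not called under any of these. Without sham_vehicle 1, 5 members were lower, with 1 of 37 in complex I, 1 of 4 in complex II, 2 of 18 in complex IV, none in complexes III and V, and Atp5s, and the median was -0.19. The medians per complex were then -0.20, -0.45, -0.22, -0.17 and -0.18 for complexes I to V, and they were not tested against each other.

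The called members came from 4 complexes. In complex I they were Ndufs1, with 133, 200.2 and 240.1 FPKM in the MI_DCA hearts, against 238, 274 and 293 FPKM in the sham_vehicle hearts (log2 fold change -0.54, SE 0.15, adjusted p = 0.028), and Ndufa10, an accessory subunit of the membrane arm, with 287, 423 and 518 FPKM in the MI_DCA hearts, against 489.5, 552 and 567 FPKM in the sham_vehicle hearts (log2 fold change -0.44, SE 0.15, adjusted p = 0.0474). In complex II they were Sdha, with 258, 395 and 453 FPKM in the MI_DCA hearts, against 436, 519 and 567 FPKM in the sham_vehicle hearts (log2 fold change -0.48, SE 0.14, adjusted p = 0.0328), and Sdhd, with 120.3, 211 and 249.5 FPKM in the MI_DCA hearts, against 249, 259.6 and 283 FPKM in the sham_vehicle hearts (log2 fold change -0.47, SE 0.16, adjusted p = 0.0466). In these genes 4 or 5 of the 6 MI_DCA hearts were below every sham. Sdhb had 442, 744 and 884 FPKM in the MI_DCA hearts, against 802, 879.8 and 1032 FPKM in the sham_vehicle hearts (log2 fold change -0.39, SE 0.17, adjusted p = 0.0975) and Sdhc had 262, 463 and 619 FPKM in the MI_DCA hearts, against 540.1, 573 and 598 FPKM in the sham_vehicle hearts (log2 fold change -0.41, SE 0.18, adjusted p = 0.106), and neither was called. Sdhc was also above every sham in 1 MI_DCA heart.

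In complex IV, Cox6b2 had 0.83, 2.32 and 4.25 FPKM in the MI_DCA hearts, against 4.04, 5.44 and 6.97 FPKM in the sham_vehicle hearts (log2 fold change -1.10, SE 0.23, adjusted p = 0.012), and Cox7a2l had 113, 164 and 221 FPKM in the MI_DCA hearts, against 229, 235 and 243 FPKM in the sham_vehicle hearts (log2 fold change -0.58, SE 0.16, adjusted p = 0.0293). In complex V, Atp5a1, the alpha subunit, had 866, 1397 and 1699.9 FPKM in the MI_DCA hearts, against 1688, 1809 and 2103 FPKM in the sham_vehicle hearts (log2 fold change -0.49, SE 0.16, adjusted p = 0.0443). Atp5s had 8.17, 10.5 and 14.8 FPKM in the MI_DCA hearts, against 14.9, 15.6 and 17.7 FPKM in the sham_vehicle hearts (log2 fold change -0.55, SE 0.14, adjusted p = 0.0214). Cox7a2l and Atp5s did not overlap between the groups, and neither did Uqcrc2 of complex III, which was not called. The share of all genes without overlap was not computed for this comparison. The calls of Cox6b2 and Atp5s were kept when any 1 library was left out, and each of the other 6 was lost without MI_DCA 2, 4 or 6 and without sham_vehicle 2, 3, 5 or 6. The number of members lower ranged from 2 to 19 over the leave-outs, and was 19 without MI_DCA 3. With sample quality weights, the median was -0.02 and 41 members were above 0.

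Among the ratios, Cox6b2/Cox6b1 passed in this comparison, averaging -8.85 ± 0.39 in MI_DCA hearts and -7.87 ± 0.39 in sham_vehicle hearts (SD, n = 6 each) (difference -0.98, exact permutation, adjusted p = 0.039), and rests on a gene of few FPKM. It was lost without MI_DCA 4 or 5 and without sham_vehicle 2, 3, 4 or 6 (exact permutation, adjusted p between 0.0312 and 0.052 over the 12 leave-outs). Cox8b/Cox8a averaged 1.44 ± 0.42 in MI_DCA hearts and 1.88 ± 0.15 in sham_vehicle hearts (SD, n = 6 each) and did not pass (exact permutation, adjusted p = 0.0981), but it passed without MI_DCA 1 (adjusted p = 0.0312), as Ndufa4l2/Ndufa4 did without MI_DCA 3 (adjusted p = 0.0416). Of the genes outside the membership, 7 of 13 in the tricarboxylic acid cycle were lower, with Ogdh at log2 fold change -0.59, SE 0.17, adjusted p = 0.0281. Ppargc1a had 7.55, 13.5 and 15.8 FPKM in the MI_DCA hearts, against 17.8, 23.3 and 25.2 FPKM in the sham_vehicle hearts (log2 fold change -0.82, SE 0.16, adjusted p = 0.00983), without overlap, and between MI_DCA and MI_vehicle hearts its log2 fold change was 0.35 (adjusted p = 0.552, not called). Of 39 assembly factors outside the Ndufaf genes 9 were lower and 2 higher, with Cox19 at log2 fold change 0.86, SE 0.24, adjusted p = 0.0291 and Sdhaf4, which binds Sdha during assembly, at log2 fold change -0.59, SE 0.20, adjusted p = 0.0494. Vdac1 was lower (log2 fold change -0.42, SE 0.12, adjusted p = 0.0312), and so was Myh6 (log2 fold change -0.84, SE 0.28, adjusted p = 0.0442), 1 of 6 called among the 15 cardiomyocyte markers (3 called without sham_vehicle 1). Other cell type markers moved in this comparison too: 8 of 12 monocyte and macrophage markers were higher (median log2 fold change 1.11), as were 5 of 5 tested neutrophil markers (median 1.57), Nppa (1.96) and Acta1 (1.395), and 5 of 9 fibroblast markers were lower (median -0.47, 3 without sham_vehicle 1). Their part in the members' values was not tested.

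Some members are uncertain because of how reads could be assigned. Of 91 members with a transcript sequence, 13 share over 20% of their 50-base stretches with another annotated gene, mostly pseudogenes that are not listed: Atp5l, Uqcrb, Atp5g2, Ndufb4, Atp5h, Ndufs3, Ndufa12, Atp5o, Ndufb9, Cox7c, Atp5f1, Cox5b and Ndufs5. Also, 16 members overlap another listed gene on the genome, among them Cox6a2 with Itgad and Cox7a2 with Tmem30a, and the use of strand in counting is not given in the sources used here.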

How the data were processed

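The members and lists were chosen with earlier results of these data known. Total RNA of the frozen apex went into RNA Access libraries, a capture method that enriches coding RNA, and was read as single 50-base reads on a BGISEQ-500 instrument, per the labels' protocols. Software and build, per the submitters' processing notes and without roles, were DESeq2 1.4.5, RSEM 1.2.12, Bowtie2 2.2.5 and GRCm38.p6. The authors deposited FPKM for 19197 genes and 64405 transcripts per library. The header names no unit, and the sums, 516274 to 584701, differed between libraries as FPKM and not TPM would. Read depth is unknown, so errors are spreads between samples. Between 15730 and 16229 genes were above 0, and libraries of a group correlated at 0.965 to 0.996. FPKM is relative to each library's total, so a change in abundant genes moves all others, and short transcripts are measured less evenly.

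Each comparison used its own 2 groups and no covariates. The fit was limma 3.58.1 in R 4.3.3 (lmFit, eBayes with trend) on log2(FPKM + 1), over the genes that reached 1 FPKM in 6 or more of the 12 libraries, with Benjamini-Hochberg adjustment over all genes tested and calls under 0.05. Fold changes are on that scale, which understates low genes. Ratios were tested over 924 regroupings of hearts (exact and two-sided, numpy 2.4.6), with a smallest possible p of 0.00216 and adjustment over 24 tests. Members were named with values if in complex II or a subunit pair, if among the 2 largest called falls or rises of a complex after infarction or against the majority there, or by smallest p in the DCA comparisons (3 per direction, or 2 called per complex). Other names were added after values were seen. Alternatives were scaling (median-ratio, TPM, quantile), pseudocount 0.1, other filters, all 18 libraries in 1 fit, sample quality weights, a replicate block, leaving out each library, and a length correction. Coordinates and promoters came from RefSeq tables of GRCm38.p6, in which all 92 members matched, and lengths from GENCODE transcripts. The limma steps were tested on simulated data.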

Additional observations from a re-analysis of the deposited data

Results flagged for a closer look

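In a group of 6 hearts, a value was singled out where its gap to the nearest other heart was over 0.625 of the group's range. Chance does this in about 1 in 20 groups, and it happened in 14 of 162 groups checked. Most of the values came from sham_vehicle 1 and MI_vehicle 4. In MI_vehicle 4, Cox7a1 was 1767 FPKM (the other MI_vehicle hearts 578 to 769.6), Cox8b 1182 FPKM (455 to 604), Atp5g1 1890.5 FPKM (959 to 1208) and Uqcr11 1025 FPKM (519.8 to 633). The Cox7a1/Cox7a2 log2 ratio was 2.38 in that heart, against 1.401 to 1.73 in the other MI_vehicle hearts. In sham_vehicle 1, Cox7a1 was 2614 FPKM (the other shams 1401 to 1529), Cox7a2 552 FPKM (311 to 339), Cox8b 1691 FPKM (962 to 1149.8), Ndufa4 3079 FPKM (1595 to 2034) and Cyc1 883 FPKM (722 to 768). The median log2 deviation over all members was 0.32 there, against -0.12 to 0.0023 in the other shams. Library sham_vehicle 1 was lowest in Ppargc1a, at 17.8 FPKM (22.4 to 25.2), and in Myh6, at 4032 FPKM (4430.4 to 4668). Esrra was lowest in sham_vehicle 6, at 46.9 FPKM (61.3 to 70.7).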

How the results depend on the processing

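Of 286 counts and medians over all members under alternative settings, 241 stayed within 1.5 times the value given or within 1 SD. Members higher in MI_vehicle than in sham_vehicle hearts numbered 0 with median-ratio scaling, 2 with sample quality weights, 0 after length correction, which was chosen after seeing the data, and 0 to 1 in leave-outs. Members lower numbered 70 to 84, and genes called 6055 to 7719, in leave-outs, with a median of -0.69 to -0.50. For MI_DCA against MI_vehicle hearts, sample quality weights gave 5370 genes in either direction and 80 members higher. Leave-outs gave 0 to 1 gene (1 without MI_vehicle 5), 0 members in either direction and a median of 0.20 to 0.39. Members lower in MI_DCA than in sham_vehicle hearts numbered 13 with quantile normalization, 5 with no filter, 5 with all 18 libraries in 1 fit, 4 with sample quality weights, 23 after length correction and 2 to 19 in leave-outs, and genes called 1055 to 4085. Their median was -0.34 to -0.16 in leave-outs. The median of complex III in MI_DCA against sham_vehicle hearts turned from -0.32 to 0.0051 with sample quality weights. Ratios of related subunits passing numbered 0 with a difference of medians and 0 to 12 in leave-outs (12 without MI_vehicle 4, 0 without MI_DCA 4 or 5 or sham_vehicle 2, 3, 4 or 6). The causes were not tested.

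Replicate numbers do not pair the hearts: same-numbered hearts correlated at -0.44 to 0.69, not each above 0.1, and not each heart correlated best with its own number. With the replicate number as a block, 79 members were lower in MI_vehicle hearts, and 0 genes were called between MI_DCA and MI_vehicle hearts. Between MI_DCA and sham_vehicle hearts, 3 members and 1696 genes were called (members lower, genes in either direction). With that block 0 ratios passed, where the few regroupings made a pass hardly possible. With no counts in the files, depth and its limit on low members such as Cox6b2 are unknown.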

Other observations

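Transcript values are given for Atp5c1, Sdhc, Atp5j, Ndufv3 and Ndufb5 as a description with no test. Shares were computed for further members too, and those shown were singled out after values were seen. Atp5c1, the gamma subunit that turns inside the catalytic head of ATP synthase, has forms known to differ between muscle and other tissues. The more abundant transcript made up 87.1%, 92.8% and 96.7% of the gene's FPKM in MI_vehicle hearts (lowest, median and highest of 6), against 97.3%, 97.6% and 97.8% in sham_vehicle hearts. The groups did not overlap. The second transcript averaged 40.3 FPKM in MI_DCA hearts, 57.1 FPKM in MI_vehicle hearts and 30.0 FPKM in sham_vehicle hearts, and its share was 1.94%, 3.42% and 7.33% in MI_DCA hearts, against 3.25%, 7.04% and 12.8% in MI_vehicle hearts. Which of the 2 is the muscle form was not determined here.

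The main transcript of Sdhc made up 60.2%, 65.6% and 73.3% of the gene in MI_DCA hearts, against 75.1%, 76.6% and 87.0% in MI_vehicle hearts, and 66.8%, 74.3% and 92.4% in sham_vehicle hearts. The DCA and vehicle hearts with infarction did not overlap in this share, whereas the shams overlapped both. Sdhc was not alone in this. The second transcript of Atp5j made up 39.4% to 45.6% in MI_DCA hearts, 26.9% to 36.8% in MI_vehicle hearts and 30.2% to 43.5% in sham_vehicle hearts. The main transcript of Ndufv3 overlapped between the groups, at 95.6% to 97.6%, 94.7% to 97.4% and 96.6% to 98.0% in the same order. That of Ndufb5 was at 76.5% to 78.8%, 73.5% to 76.7% and 73.7% to 76.3%, without overlap between MI_DCA and sham_vehicle hearts only. Estimated shares of transcripts with shared exons carry an assignment error that the files do not give.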
